A study of Mus musculus with 52 samples.

Results

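A set of 10 genes that the tumour suppressor p53 switches on was followed across the 13 clones of the series: Cdkn1a, Mdm2, Ccng1, Bax, Bbc3, Phlda3, Sesn1, Trp53inp1, Gdf15 and Zmat3. They were chosen by symbol, as p53 targets known from other work, but with earlier results of these data known. All 10 were found among the 24421 gene symbols counted. All 10 were also among the 13994 genes that passed the filter on low counts. RNA was sequenced from Cilia-APEX-IMCD3 cells, a mouse inner medullary collecting duct line that carries an APEX enzyme targeted to the cilium, in 52 libraries, 4 technical replicate libraries from each clone. Ciliated cells, starved for 50 h in 0.2% serum by the study's methods, comprised 4 control clones (conA4, conD8, conH12 and conG7) and 3 mutant clones (WDR341 and WDR343, which are Wdr34 clones, and WDR60). Non-ciliated cells comprised 4 control clones (AB_Co, BE_Co1, BE_Co2 and BE_Co3) and 2 mutant clones (BE_W34 and BE_W60). Mutants carried homozygous missense changes of Wdr34 or Wdr60, made with a cytosine base editor. A Wdr34 line sequenced only with cilia also carried, by the study's text, an unintended heterozygous missense change of Wdr34. Both genes encode intermediate chains of the dynein-2 motor of the cilium. Controls had received the editor with an empty guide vector, and every clone had grown from a single sorted cell. The non-ciliated mutant clones carried, as inferred from the study's text, Wdr34 p.Arg183Trp and Wdr60 p.Ala911Val. Which allele each ciliated Wdr34 clone carried is not in the labels, which also give 10% serum for all libraries and pair no clones between states. By the study's text the mutant lines sequenced without cilia were also among those sequenced with cilia, so WDR60 and BE_W60 may be one line, as may BE_W34 and one of the Wdr34 clones, and control lines may recur in the same way, conG7 and BE_Co2 included. All fits here treat the 13 as separate clones. Each group thus consists of 2 to 4 single lines. A single-base change does not show in counts per gene, so the genotype labels were not checked here.

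p53 is a transcription factor that cells stabilise after DNA damage and other stress. Its targets stop the cell cycle, start apoptosis, change metabolism and, through Mdm2, lead p53 itself to be degraded. The IMCD3 line was derived from a mouse that carried the early region of SV40, whose large T antigen binds p53. Neither p53 protein nor T antigen was measured here, so the values below are RNA levels of target genes in such a line, not p53 activity.

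Library totals were 14816218 to 28084979 counts, so that 1 CPM (TMM-scaled read count relative to the library total) stood for 14.4 to 29.2 counts. Among epithelial markers Cdh1 and Epcam were abundant in 11 clones, at 242 to 649 CPM for Cdh1, whereas Aqp2, the water channel that defines principal cells of the collecting duct, had a mean of 0 CPM in 12 clones and of 0.0157 CPM in BE_W60. In 2 control clones, conG7 of the ciliated and BE_Co2 of the non-ciliated cells, Cdh1 was at 14.4 and 4.22 CPM and Epcam at 13.5 and 2.86 CPM. These clones also had the lowest Krt8 (26.3 and 41.0 CPM). Of the renal transcription factors on the same list, Pax2 (310 and 277 CPM) and Pax8 (419 and 300 CPM) were highest in these clones. Of 4 proximal tubule markers Lrp2 was highest in them (447 and 272 CPM), whereas Aqp1 was highest in WDR343 and BE_Co3 (30.3 and 28.9 CPM), Slc34a1 was at 0 in every library and Slc5a2 reached at most 0.0620 CPM. Over whole marker lists, the 10 genes of collecting duct and renal epithelium summed to 869 CPM in conG7 and 770 CPM in BE_Co2 against 1261 to 4391 CPM in the other 11 clones. The 4 endothelial markers summed to at most 0.186 CPM and the 4 leukocyte markers to at most 5.45 CPM. The 5 fibroblast markers summed to at most 5.52 CPM except in WDR343, where they reached 31.6 CPM, 29.2 CPM of it from Dcn. The main comparisons are therefore given with and without conG7 and BE_Co2.

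Of the 10 genes, 8 had promoter windows in the RefSeq table of GRCm38.p6, 13 windows in all, each from 250 bases before to 50 bases after a transcript start. Windows were searched for the p53 response element, a pair of decamers (3 purines, C, 2 of A or T, G, 3 pyrimidines) with 0 to 10 bases between them. C and G at the core were required in both decamers, and at most 3 of the 20 positions could differ. The motif equals its own reverse complement, so one search covers both strands. A match was found for 5 of the 8 genes, and in 4290 of all 32851 windows (13.1%), or for 14.7% of the 27025 genes in the table. For each of these 5 genes the match with the fewest differences, and of equal ones that with the shortest gap, is shown because elements of this form are the kind that p53 binds; that the printed ones are bound was not tested. Each line gives 60 bases of the gene's own strand, 5′ to 3′, with the decamers in capitals.

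Cdkn1a, chr17:29090908-29090967, plus strand, 1 difference from the element: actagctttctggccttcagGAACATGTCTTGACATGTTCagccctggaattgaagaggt
Ccng1, chr11:40755442-40755501, minus strand, 1 difference: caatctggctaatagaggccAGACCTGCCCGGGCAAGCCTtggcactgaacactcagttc
Bax, chr7:45467060-45467119, minus strand, 2 differences: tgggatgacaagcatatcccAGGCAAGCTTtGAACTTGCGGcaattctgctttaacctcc
Sesn1, chr10:41887234-41887293, plus strand, 2 differences: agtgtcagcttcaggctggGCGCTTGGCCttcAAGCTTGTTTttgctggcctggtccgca
Bbc3, chr7:16309466-16309525, plus strand, 3 differences: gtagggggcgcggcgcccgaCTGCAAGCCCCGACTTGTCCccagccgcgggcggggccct

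In Cdkn1a the match lay from 51 to 32 bases before the upstream of the 2 annotated starts, and the window of the other start held none. In Ccng1 it lay from 195 to 176 bases before the start, in Bax from 201 to 181 and, at a start inside the gene, in Sesn1 from 186 to 164. The windows of Bax and Sesn1 each held 2 equally good matches. Of the 3 starts of Bbc3, 1 had the printed match from 97 to 78 bases before it, and another had a match with as many differences, 2 bases between its decamers, from 105 to 84 bases before it. The windows of Mdm2, Phlda3 and Gdf15 held no such match, although that of Mdm2 held a single exact decamer, as did 8.36% of all windows. Trp53inp1 and Zmat3 had no window in the table. A match describes these letters and is not evidence of binding.

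On GRCm38.p6 the genes lie at chr17:29090979-29100722 (Cdkn1a), chr10:117688875-117710758 (Mdm2), chr11:40748552-40755309 (Ccng1), chr7:45461695-45466903 (Bax), chr7:16308398-16318334 (Bbc3), chr1:135766085-135769134 (Phlda3), chr10:41810574-41908436 (Sesn1), chr4:11156441-11174379 (Trp53inp1), chr8:70629393-70632470 (Gdf15) and chr3:32334792-32365665 (Zmat3). Bax and Bbc3 share a chromosome, as do Mdm2 and Sesn1.

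Per kilobase of annotated exon, Gdf15 and Cdkn1a were the most abundant of the 10 in ciliated control clones, at 167 ± 149 and 91.4 ± 49.7 CPM per kb (SD, n = 4 clones). Bax, Phlda3 and Mdm2 followed at 38.0 ± 4.85, 30.3 ± 11.2 and 22.2 ± 7.16 CPM per kb. Sesn1, Ccng1 and Bbc3 lay at 13.5 ± 13.3, 12.8 ± 3.18 and 10.1 ± 2.20, and Trp53inp1 and Zmat3 were lowest at 4.30 ± 1.14 and 2.21 ± 0.543 CPM per kb. Gdf15 and Cdkn1a overlapped each other within their spread over clones, as did Sesn1, Ccng1 and Bbc3. In non-ciliated control clones Gdf15 was again the most abundant, at 172 ± 73.3 CPM per kb, and Ccng1, at 37.3 ± 11.6, lay beside Bax (41.7 ± 4.46), Cdkn1a (37.3 ± 27.9) and Phlda3 (34.8 ± 5.09). Mdm2, at 24.6 ± 2.67 CPM per kb, came next, and Sesn1 (5.28 ± 2.27), Zmat3 (4.85 ± 1.53), Bbc3 (4.404 ± 0.967) and Trp53inp1 (2.77 ± 0.760) were the least abundant.

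**Figure D1:**
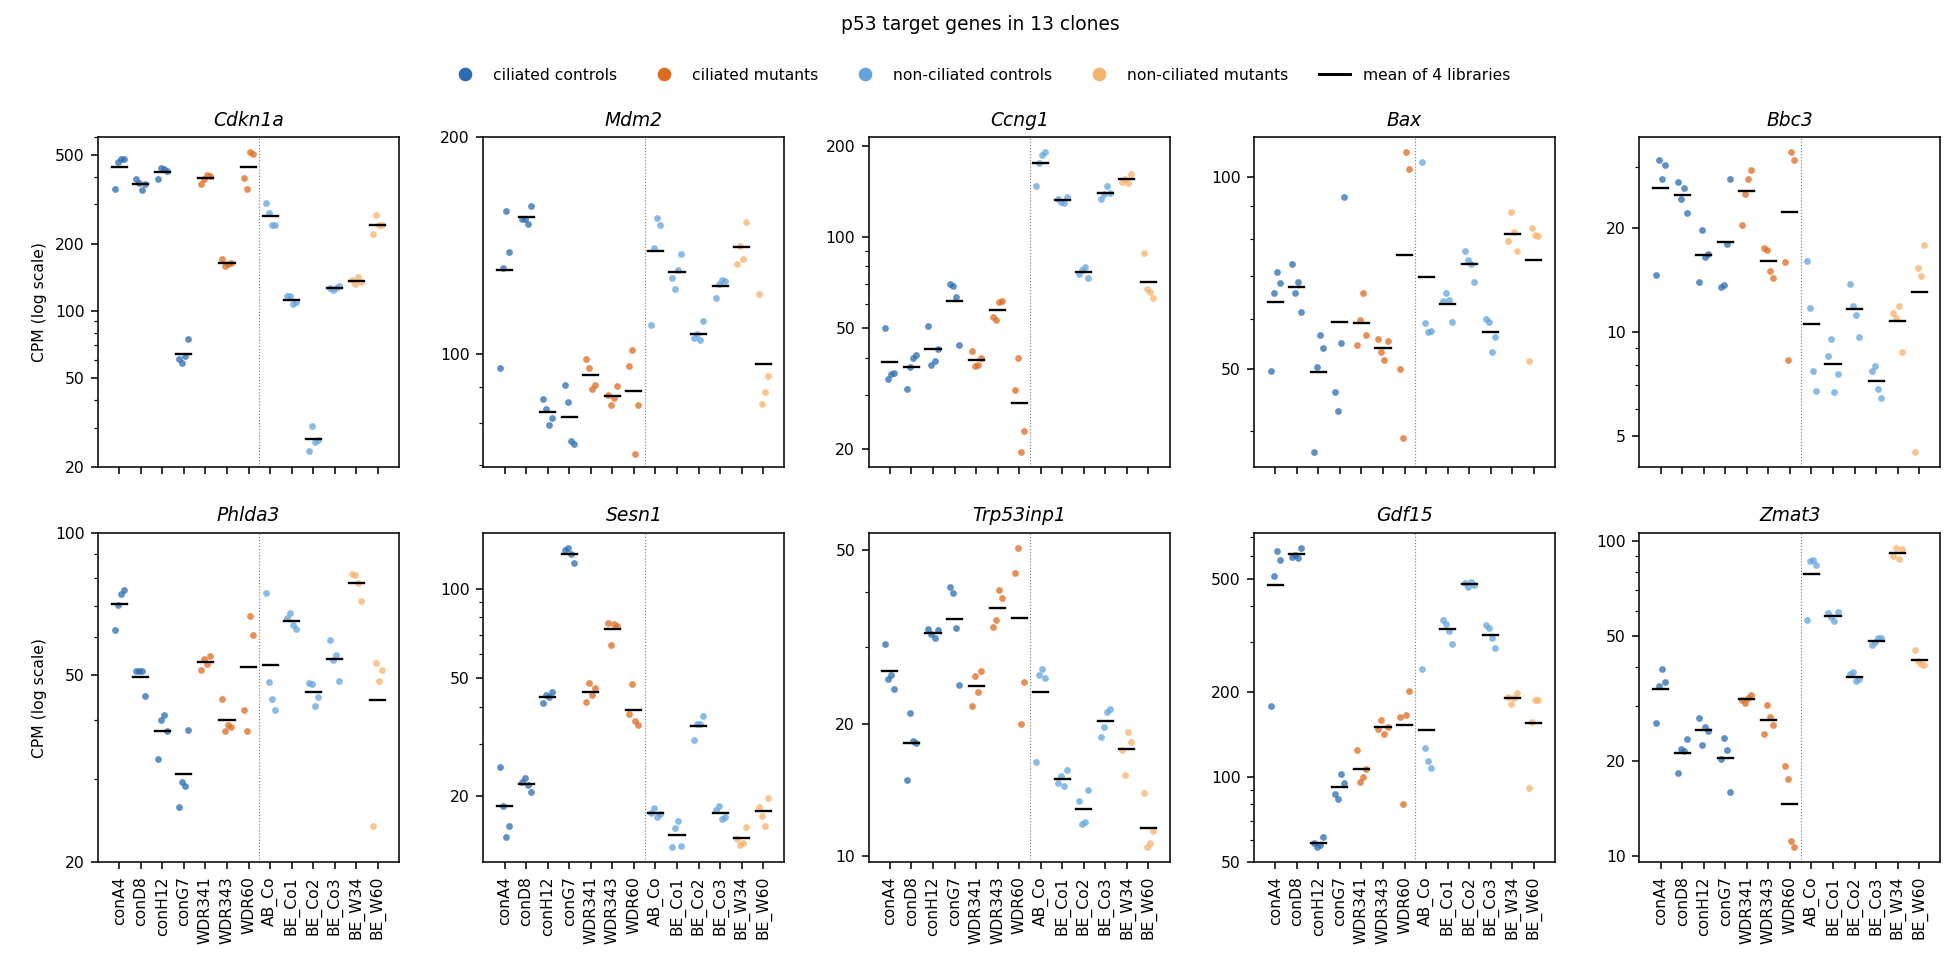
Level of each p53 target gene (CPM, log axis) in the 4 libraries of each clone, with a black line at the clone mean and ciliated clones to the left of the dotted line. Cdkn1a is lowest in conG7 (64.2 CPM) and BE_Co2 (26.5 CPM), and Ccng1 is at most 61.5 CPM in every ciliated clone and at least 71.2 CPM in every non-ciliated clone.

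The first question was whether these genes differ between ciliated and non-ciliated cells. In control clones, Ccng1 and Zmat3 were lower and Bbc3 was higher in ciliated cells, and the other 7 genes did not pass the test (edgeR quasi-likelihood test on clone sums, 2-sided, Benjamini-Hochberg adjusted p under 0.05 over all genes). Of all genes tested 18.4% were called, 8.98% higher and 9.46% lower, so 3 of 10 is not far from the share over all genes. The median log2 difference was -0.07 over the 10 genes and 0.02 over all genes tested, and the median size of the difference, whatever its sign, was 0.88 and 0.41. Ciliated cells differed from non-ciliated cells also in serum, which cannot be told apart from the state. By the study's text a Wdr34 mutant line of the ciliated set was obtained after the non-ciliated cells had been sequenced. The labels give no dates, so whether the control clones of the states were sequenced at different times is not known here. In RNA of whole cultures, fewer cells that express a gene and less RNA per cell cannot be told apart either. Without conG7 and BE_Co2 the same 3 genes were called, with 20.8% of all genes. With the 52 libraries as independent samples Cdkn1a, Sesn1 and Trp53inp1 were called higher as well, in a fit that called 61.9% of all genes. An additive fit of all 13 clones, which called 38.5% of all genes, added Sesn1 and Trp53inp1 to the 3.

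Ccng1 encodes cyclin G1, which recruits a phosphatase to Mdm2. It stood at 38.8 CPM in conA4, 37.4 in conD8, 42.6 in conH12 and 61.5 in conG7, and at 175 in AB_Co, 132 in BE_Co1, 76.6 in BE_Co2 and 140 in BE_Co3. All ciliated controls lay below all non-ciliated controls, conG7 and BE_Co2 being the nearest to each other. The log2 difference was -1.56 (SE 0.32, adjusted p = 0.00844). It was -1.93 (SE 0.32, adjusted p = 0.00415) without conG7 and BE_Co2. Mutant clones were ordered in the same way: Ccng1 was at 39.3, 57.7 and 28.4 CPM in WDR341, WDR343 and WDR60, and at 155 and 71.2 CPM in BE_W34 and BE_W60.

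Zmat3, an RNA-binding zinc finger protein, was at 34.0 CPM in conA4, 21.3 in conD8, 25.2 in conH12 and 20.4 in conG7, against 78.5 in AB_Co, 58.0 in BE_Co1, 37.2 in BE_Co2 and 48.3 in BE_Co3. Again the groups did not overlap. The log2 difference was -1.15 (SE 0.33, adjusted p = 0.0326), and without conG7 and BE_Co2 it was -1.22 (SE 0.37, adjusted p = 0.0410). This call was the least stable of the 3: leaving out conD8, conG7, conH12, AB_Co, BE_Co1 or BE_Co3 alone gave log2 differences of -1.22 to -0.94 with adjusted p = 0.0561 to 0.0854.

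Bbc3 encodes Puma, a BH3-only protein that frees Bax to act on mitochondria. Its levels were 25.99, 24.8, 16.7 and 18.1 CPM in conA4, conD8, conH12 and conG7, and 10.53, 8.06, 11.6 and 7.22 CPM in AB_Co, BE_Co1, BE_Co2 and BE_Co3. Every ciliated control was above every non-ciliated control, with a log2 difference of 1.23 (SE 0.22, adjusted p = 0.00504). Without conG7 and BE_Co2 it was 1.39 (SE 0.24, adjusted p = 0.00528), and with libraries weighted by voomLmFit and the clone as a random block it was 1.31 with adjusted p = 0.0632. Bax, the effector that Puma acts upon, differed by -0.09 on the log2 scale (SE 0.14, adjusted p = 0.671), with 49.5 to 67.1 CPM in ciliated and 57.2 to 73.0 CPM in non-ciliated controls.

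These 3 genes were also the ones whose control clone means did not overlap between states, which held for 21.5% of all genes tested (10% higher, 11.5% lower). The exact permutation p was 0.0286 for each, the smallest that 4 against 4 clones allow, and 0.133 when adjusted over all genes.

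Cdkn1a, which encodes the cyclin-dependent kinase inhibitor p21, was at 444, 371 and 421 CPM in conA4, conD8 and conH12 but at 64.2 CPM in conG7. In non-ciliated controls it was at 266, 112 and 126 CPM in AB_Co, BE_Co1 and BE_Co3 and at 26.5 CPM in BE_Co2. The states overlapped through conG7 alone, although conG7 itself was above BE_Co2, and the log2 difference of 1.30 (SE 0.66) was not called (adjusted p = 0.190). The voomLmFit model called it higher (1.37, adjusted p = 0.0048004), as did the fit of libraries as samples. Leaving out conG7 and BE_Co2 gave 1.29 (SE 0.41, adjusted p = 0.0515). In that fit, which called 20.8% of all genes, the epithelial markers Cdh1 and Epcam were called higher in ciliated controls. They were 2 of the 9 genes tested on the renal epithelium list, of which 0 were lower.

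Sesn1, which encodes a stress-induced inhibitor of mTORC1, was highest among the controls of each state in the clone where Cdkn1a was lowest. It was at 131 CPM in conG7 against 18.4, 21.9 and 43.2 CPM in conA4, conD8 and conH12, and at 34.4 CPM in BE_Co2 against 17.5, 14.7 and 17.5 CPM in AB_Co, BE_Co1 and BE_Co3. Its log2 difference was 1.34 (SE 0.56, adjusted p = 0.113), and 0.74 (SE 0.33, adjusted p = 0.133) without these clones. A DESeq2 Wald test on the same sums gave 1.36 with adjusted p = 0.0439, in a fit that called 26% of all genes, and voomLmFit gave 0.99 with adjusted p = 0.0146, with 27% called. Between means of the clones' log2 CPM the difference was 0.97.

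Trp53inp1, a nuclear protein that aids p53-driven apoptosis, was at 26.4, 18.1, 32.3 and 34.6 CPM in conA4, conD8, conH12 and conG7, and at 23.6, 14.99, 12.8 and 20.3 CPM in AB_Co, BE_Co1, BE_Co2 and BE_Co3. The groups overlapped through conD8, and the log2 difference of 0.61 (SE 0.25) was not called (adjusted p = 0.113). Without conG7 and BE_Co2 it was 0.37 (SE 0.27, adjusted p = 0.360). Mdm2, Phlda3 (an inhibitor of Akt that competes for membrane lipids) and Gdf15 (a secreted stress hormone) had log2 differences of -0.16 (SE 0.21), -0.18 (SE 0.25) and -0.04 (SE 0.62), with adjusted p = 0.630, 0.646 and 0.968. Gdf15 differed by 0.51 (SE 0.64) without conG7 and BE_Co2, and by -0.55 between means of the clones' log2 CPM.

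**Figure D2:**
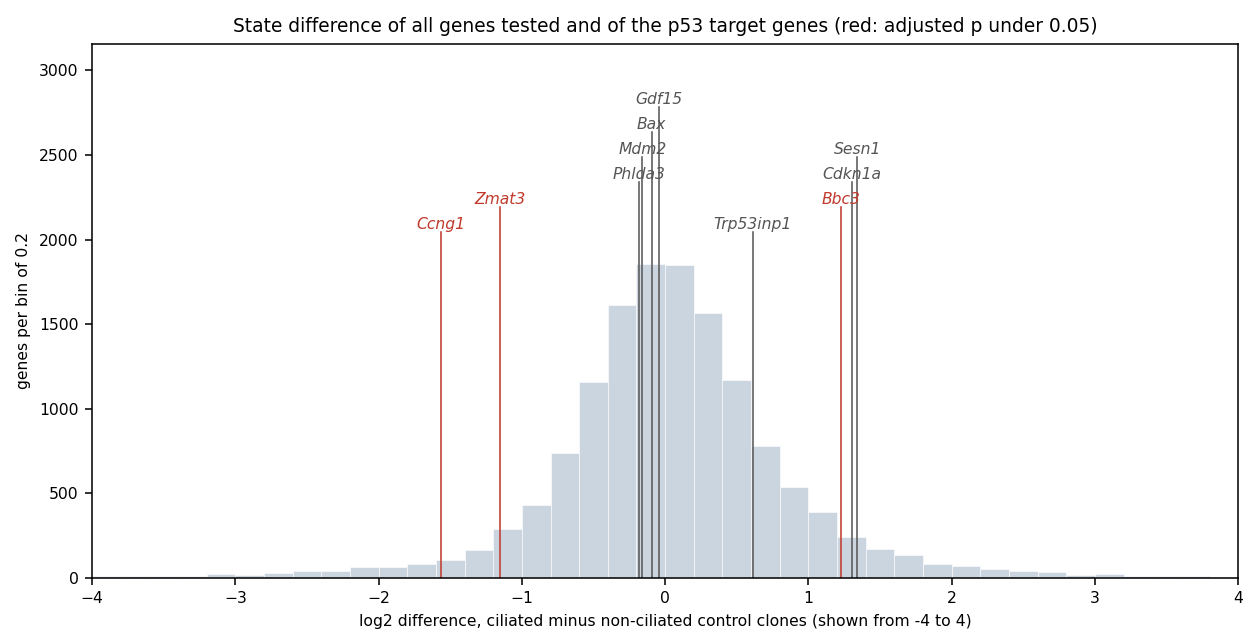
Histogram of the log2 difference between ciliated and non-ciliated control clones for all genes tested (bins of 0.2), with each p53 target gene marked by a line and called genes in red. Ccng1 (-1.56) and Zmat3 (-1.15) lie on the lower side and Bbc3 (1.23) on the upper side, while Gdf15, Bax, Mdm2 and Phlda3 lie near 0.

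Mutant clones gave a comparison of the states with other clones, 3 ciliated against 2 non-ciliated, which was added after the results were seen. Here 12.9% of all genes were called, 5.32% higher and 7.53% lower in ciliated cells. Ccng1 (log2 difference -1.45, SE 0.40, adjusted p = 0.0369) and Zmat3 (-1.47, SE 0.41, adjusted p = 0.0399) were lower, and Trp53inp1 (1.13, SE 0.34, adjusted p = 0.0493) was higher. Bbc3 differed by 0.83 (SE 0.29, adjusted p = 0.0760), Sesn1 by 1.69 (SE 0.75, adjusted p = 0.148) and Cdkn1a by 0.80 (SE 0.86, adjusted p = 0.557). When conG7 and BE_Co2 were left out of the fit, Sesn1 was called higher as well (1.695, SE 0.39, adjusted p = 0.0152), with 20.8% of all genes called. Clone means did not overlap for 7 of the 10 genes, Ccng1, Zmat3, Mdm2 and Gdf15 lower and Bbc3, Sesn1 and Trp53inp1 higher, and for 52.2% of all genes (25.4% higher, 26.8% lower), with exact permutation p = 0.1 as the smallest that 3 against 2 clones allow. Zmat3 was lowest in WDR60, at 14.7 CPM, and highest in BE_W34, at 91.9 CPM.

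Libraries of 1 clone were not always alike. In WDR60, Bax was at 50.01 and 38.9 CPM in libraries 1 and 2 and at 109 and 103 CPM in libraries 3 and 4. Bbc3 followed the same split, with 15.9 and 8.27 CPM against 33.0 and 31.4 CPM. Ccng1 went the other way, with 31.3 and 39.8 CPM against 19.5 and 22.9 CPM, as did Trp53inp1, with 44.1 and 50.5 CPM against at most 24.9 CPM. Library 1 of AB_Co held Bax at 105 CPM against 57.2 to 59.1 CPM in the other 3 libraries. What set these libraries apart was not tested.

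**Figure D3:**
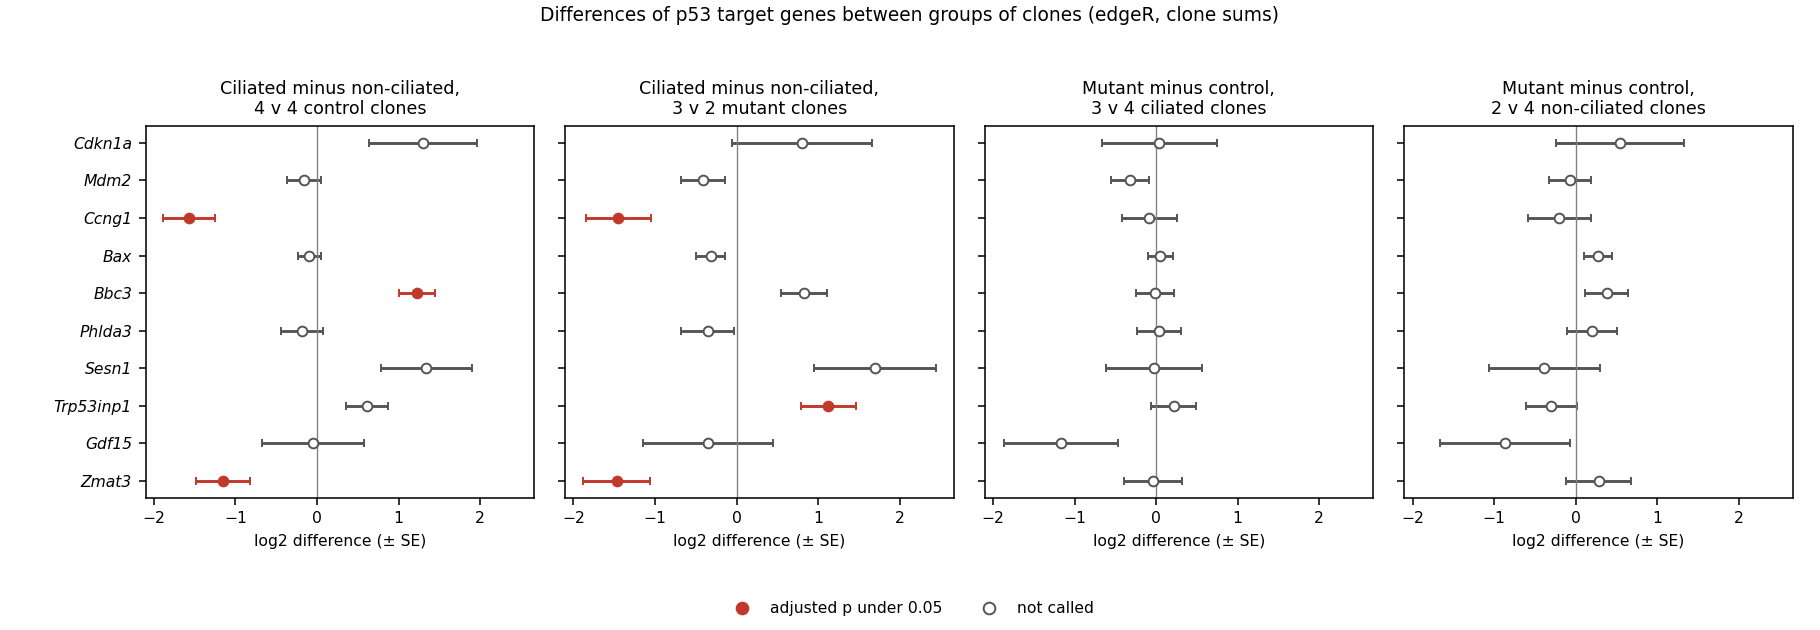
Log2 differences of the 10 genes (points) with their SE (bars) in 4 comparisons of clones, with red filled points for adjusted p under 0.05. Ccng1 and Zmat3 are red in both comparisons of the states, and no gene is red in the comparisons of mutants with controls.

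The second question was whether the mutants differ from controls in these genes. None of the 10 genes was called in ciliated or in non-ciliated cells, and 0 of them had an unadjusted p under 0.05 in either. Over all genes tested edgeR called 0 (0%) in each state as well, with 272 and 516 of 13994 genes at an unadjusted p under 0.05, and DESeq2 called 3 in ciliated and 14 in non-ciliated cells. In ciliated cells log2 differences ran from -1.17 (SE 0.70) for Gdf15 to 0.21 (SE 0.27) for Trp53inp1, with SE from 0.15 for Bax to 0.70 for Cdkn1a. These differences compare mean counts, in which a high clone weighs more. Between means of the clones' log2 CPM, they were -0.55 for Gdf15, 0.37 for Sesn1 (-0.03 in the fit) and 0.24 for Cdkn1a (0.04 in the fit). In non-ciliated cells they ran from -0.86 (SE 0.80) for Gdf15 to 0.54 (SE 0.78) for Cdkn1a. The median over the 10 genes was -0.02 in ciliated and 0.07 in non-ciliated cells, and 0.0012 and 0.0030 over all genes. With SE of this size in this fit, the absence of calls does not exclude changes such as a doubling of Cdkn1a, Sesn1 or Gdf15. The power to detect them was not tested.

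Gdf15 had the most negative log2 difference of the 10 in each state. It was at 107, 150 and 152 CPM in WDR341, WDR343 and WDR60, and the 4 ciliated controls lay on both sides of them, at 58.5 (conH12), 92.0 (conG7), 474 (conA4) and 610 CPM (conD8). In BE_W34 and BE_W60 it was at 190 and 155 CPM, between AB_Co at 147 CPM and BE_Co3, BE_Co1 and BE_Co2 at 318, 331 and 479 CPM. With the 52 libraries taken as independent samples Gdf15 was called lower in ciliated mutants (log2 difference -1.18, adjusted p = 0.0324), in a fit that called 6.57% of all genes. Leaving out conG7 and BE_Co2 gave -1.46 (SE 0.65, adjusted p = 0.818, unadjusted p = 0.0470).

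Cdkn1a was at 393, 164 and 442 CPM in WDR341, WDR343 and WDR60, within the range of the ciliated controls, and at 137 and 244 CPM in BE_W34 and BE_W60, within that of the non-ciliated controls. Its log2 difference in ciliated cells was 0.04 (SE 0.70) with all controls and -0.29 (SE 0.41) without conG7 and BE_Co2. Sesn1 was at 44.9, 73.0 and 38.9 CPM in WDR341, WDR343 and WDR60. Its log2 difference was -0.03 (SE 0.59) with conG7 among the controls and 0.91 (SE 0.33, adjusted p = 0.818, unadjusted p = 0.0200) when conG7 and BE_Co2 were left out.

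Mdm2, the ubiquitin ligase that degrades p53, was at 93.4, 87.4 and 88.7 CPM in the ciliated mutants and from 81.7 to 155 CPM in the ciliated controls. Bax was the single gene of the 10 whose mutant and control means did not overlap in non-ciliated cells, at 81.5 and 74.1 CPM against 57.2 to 73.0 CPM, which held for 14.1% of all genes (7.76% with mutants higher). The exact permutation p was 0.133, where 0.0667 is the smallest possible for 2 against 4 clones, and the groups overlapped when library log2 values were averaged. In ciliated cells 0 of the 10 genes and 2.1% of all genes had clone means that did not overlap. The mutant effect was also compared between the states by an interaction term, which called 0 of 13994 genes (0%), with 136 at an unadjusted p under 0.05 and 0 called by DESeq2. For the 10 genes it ran from -0.50 (SE 1.06) for Cdkn1a to 0.51 (SE 0.42) for Trp53inp1.

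**Figure D4:**
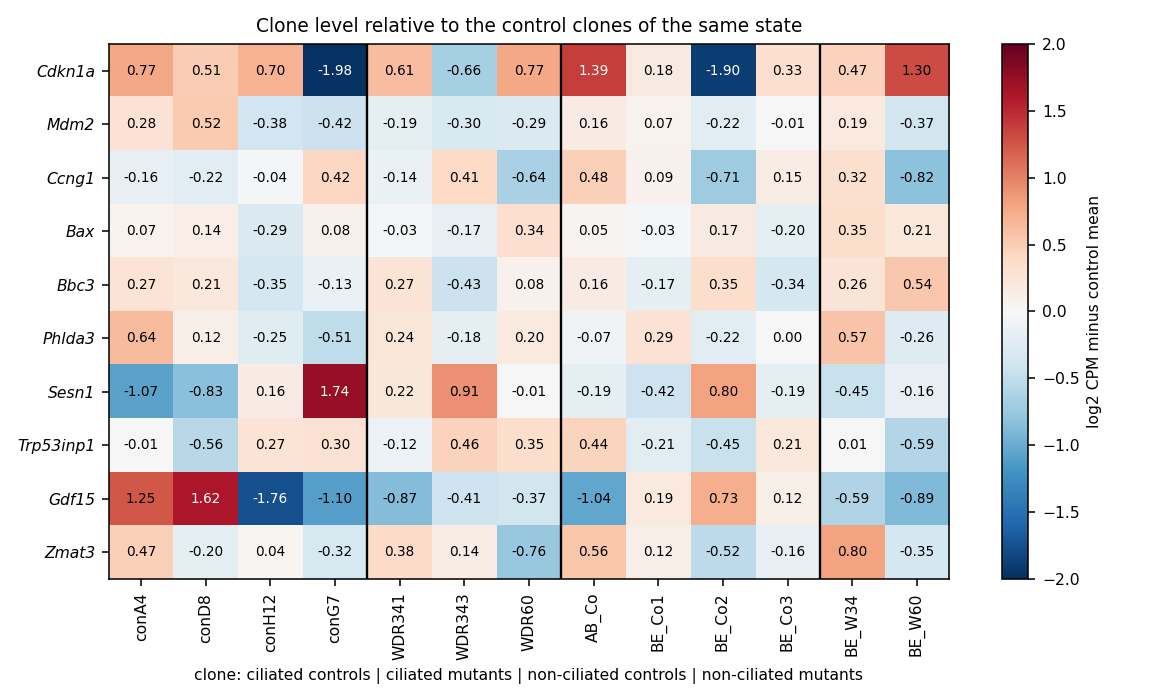
Log2 CPM of each gene in each clone minus the mean of the control clones of the same state, as a colour from -2 (blue) to 2 (red) with the value printed. The strongest colours belong to control clones, such as Cdkn1a in conG7 (-1.98) and BE_Co2 (-1.90) and Gdf15 in conH12 (-1.76) and conD8 (1.62).

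The third question was how far control clones of one state differ from each other, which sets the scale for the comparisons above. With the 4 libraries of each clone as the error, 9 of the 10 genes differed among the 4 control clones in each state, all but Bax (edgeR F test on libraries, adjusted p = 0.193 in ciliated and 0.108 in non-ciliated cells). Of all genes 85.4% were called in ciliated and 80.5% in non-ciliated cells. Without conG7, 9 of the 10 genes were called among the ciliated controls (all but Ccng1) and 74.6% of all genes. Without BE_Co2, 6 were called among the non-ciliated controls (all but Bax, Bbc3, Mdm2 and Phlda3) and 56.4% of all genes. This test speaks for these clones against technical replicates.

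Cdkn1a varied by 2.78 log2 units among ciliated and by 3.31 among non-ciliated control clones, at least as large as in 91.5% and 94.3% of all genes. These ranges rest on conG7 and BE_Co2: without them Cdkn1a varied by 0.26 and 1.27 units, at least as much as 22.7% and 90.3% of all genes. Gdf15 varied by 3.37 and 1.72 units, and Sesn1 by 2.84 and 1.27 units. Without these clones Gdf15 varied by 3.37 and 1.14 units and Sesn1 by 1.246 and 0.28 units. In ciliated cells 4 of the 10 genes had a range of at least 1 log2 unit (Cdkn1a, Gdf15, Sesn1 and Phlda3), compared with 33.6% of all genes. In non-ciliated cells 5 did (Cdkn1a, Gdf15, Sesn1, Ccng1 and Zmat3), compared with 26.4%. Without conG7 and BE_Co2, 2 of the 10 did in each state, Gdf15 and Sesn1 in ciliated and Cdkn1a and Gdf15 in non-ciliated cells, compared with 17.7% and 14.6% of all genes. With all 4 clones Bax had the smallest range in both states, 0.43 and 0.37 units, and Mdm2 had 0.91 and 0.37 units.

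Pairs of the 10 genes went together among clones in some cases and in opposite directions in others. After each state was centred on its mean, the 45 pairs of these genes had a median Pearson r of 0.01 over 13 clones, and 25 pairs were above 0. The quartiles of all gene pairs were -0.29 and 0.29. The highest value was 0.73 for Bax and Bbc3, and 0.75 in the 11 clones without conG7 and BE_Co2. Bax and Bbc3 also moved together between the libraries of WDR60, and Bax was not called among control clones of either state. How far differences between libraries enter this r was not tested. Within the 7 ciliated clones 24 of the 45 pairs were above 0 and within the 6 non-ciliated clones 21, and 25 pairs had opposite signs in the 2 states. Mdm2 and Gdf15 had r = 0.69 over 13 and 0.79 over 11 clones, Mdm2 and Phlda3 had 0.67 and 0.59, Ccng1 and Trp53inp1 had 0.66 and 0.59, and Ccng1 and Zmat3 had 0.64 and 0.70. Of these, Bax with Bbc3 (0.64 in ciliated and 0.85 in non-ciliated clones) and Mdm2 with Phlda3 (0.64 and 0.77) were alike in both states. Mdm2 with Gdf15 had 0.94 in ciliated and -0.19 in non-ciliated clones, whereas Ccng1 with Trp53inp1 had 0.33 and 0.91 and Ccng1 with Zmat3 0.33 and 0.85. In non-ciliated clones Mdm2 also had r = 0.97 with Ccng1, 0.88 with Zmat3 and 0.81 with Trp53inp1, and in ciliated clones these were -0.34, 0.24 and -0.85. The 3 lowest values all involved Sesn1. They were -0.77 with Cdkn1a, -0.77 with Phlda3 and -0.76 with Mdm2, and over the 11 clones these pairs had -0.40, -0.64 and -0.78, and each was negative in both states. These are descriptions over clones that share the state means used for centring.

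Among the 5 genes whose expression pattern was most like that of Cdkn1a over the 13 clones, by the same state-centred r, were 1810019D21Rik (0.98), Stard10 (0.98), Esrp2 (0.98) and Prom2 (0.98). The least alike were Fam168a (-0.98), Zbtb8b (-0.97), Ppap2b (-0.97), Il17rc (-0.96) and 4921506M07Rik (-0.96). Without conG7 and BE_Co2 the 4 genes named as most alike had r of 0.91 to 0.94 and the 5 least alike of -0.92 to -0.86. Epcam had r = 0.96 with Cdkn1a over 13 and 0.95 over 11 clones, and Cdh1 had 0.93 and 0.69. Over the 11 clones the Spearman value was 0.93 for Epcam and 0.52 for Cdh1. Of the other tested genes on the renal epithelium list, Krt8, Krt18 and Krt19 had 0.87 to 0.92 over 13 and 0.45 to 0.64 over 11 clones, with rank correlations (Spearman) of 0.13 to 0.29 over the 11. Pax8 and Pax2 went the other way, at -0.78 and -0.85 over 13 and -0.42 and -0.33 over 11 clones, and Gata3 and Scnn1a had 0.14 and 0.32 over 13 and -0.54 and -0.32 over 11. Trp53 had 0.62 and 0.10. WDR343, whose Cdkn1a of 164 CPM was the lowest of the ciliated mutants, had 301 CPM of Cdh1, 287 of Epcam and 76.7 of Krt8, each the lowest of the ciliated mutants. The part of the epithelial markers in the Cdkn1a values was not tested.

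**Figure D5:**
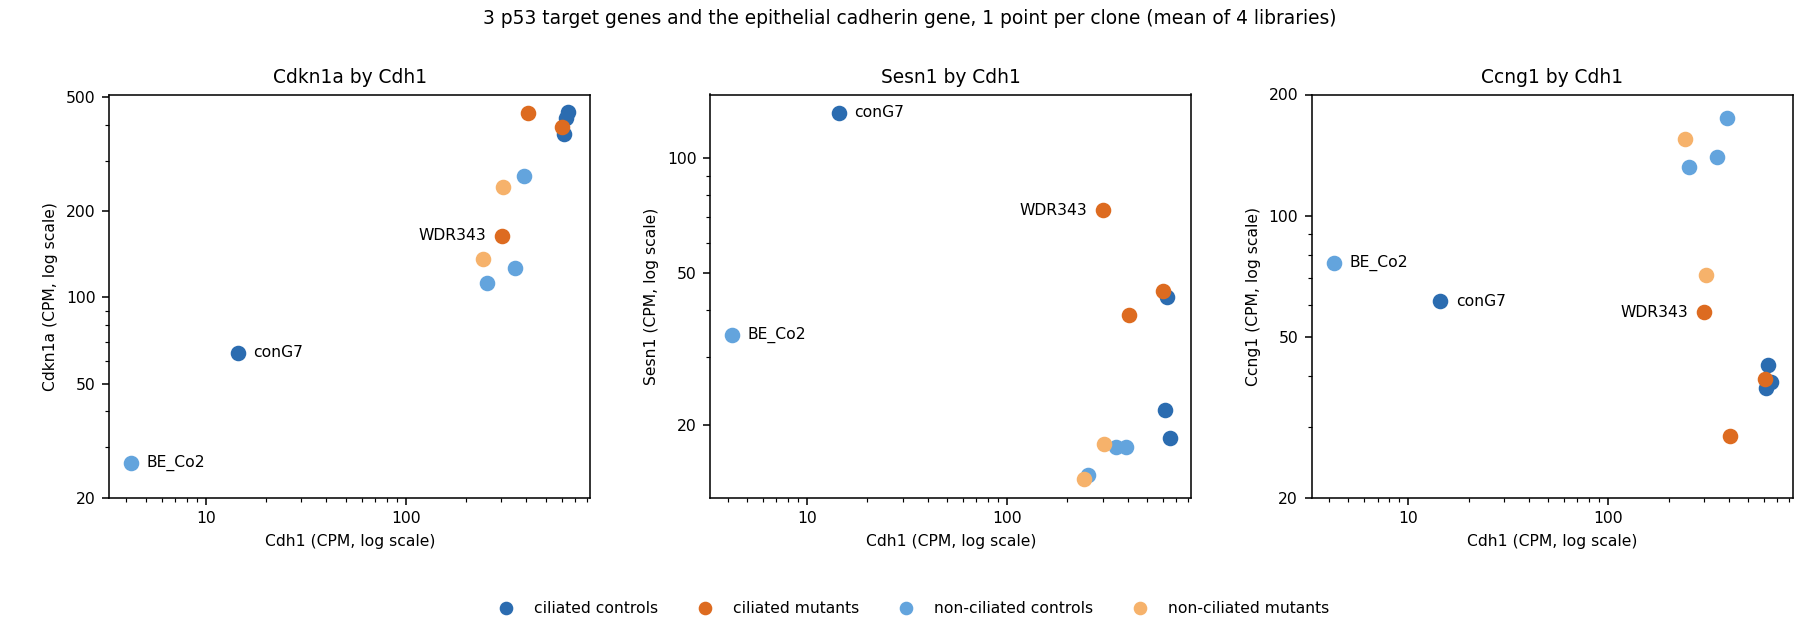
Cdkn1a, Sesn1 and Ccng1 against Cdh1 (CPM, both axes on log scales), with 1 point per clone. The control clones conG7 and BE_Co2 lie apart at 14.4 and 4.22 CPM of Cdh1 with the lowest Cdkn1a, and within each state they have the highest Sesn1.

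Trp53 itself, the gene for p53, was at 183 to 248.8 CPM in ciliated controls and at 240 to 334 CPM in non-ciliated controls, and its log2 difference of -0.41 (SE 0.14) was not called (adjusted p = 0.0701). Between mutant clones of the states it was -0.51 (SE 0.18, adjusted p = 0.0848), and it was called lower there when conG7 and BE_Co2 were left out of the fit (-0.51, SE 0.16, adjusted p = 0.0469). Of a list of 13 tested genes, Trp53 among them, that encode p53, regulate it or relay damage signals to it, 3 were higher in ciliated controls, where 8.98% of all genes were higher and 9.46% lower. They were Rchy1 (0.65, SE 0.14, adjusted p = 0.00899) and Rfwd2 (0.50, SE 0.12, adjusted p = 0.0162), which are ubiquitin ligases of p53, and Cdkn2a (0.96, SE 0.22, adjusted p = 0.0127), whose locus gives the Mdm2 inhibitor Arf and the kinase inhibitor p16. Chek1, a checkpoint kinase, was lower (-0.31, SE 0.09, adjusted p = 0.0401), and without conG7 and BE_Co2 it was not called. The median of the list was -0.15. Like the lists below, it was chosen with earlier results of these data known.

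Genes listed as other p53 targets were called in both directions, to be read against the same shares of 8.98% and 9.46%. Whether each of them responds to p53 in mouse cells was not tested. Of 14 that act in arrest and repair, Ddb2, a subunit of the UV damage sensor, was higher in ciliated controls (0.97, SE 0.29, adjusted p = 0.0375). Plk2 (-1.34, SE 0.29, adjusted p = 0.0109), Rrm2b (-0.52, adjusted p = 0.0294) and Gtse1 (-0.59, adjusted p = 0.0341) were lower, and the median was -0.10. Without conG7 and BE_Co2 0 were called higher and 5 lower, Ckap2 and Ercc5 being added and Ddb2 lost. Of 11 that act in death and survival, Trp53i13 was higher (0.61, SE 0.17, adjusted p = 0.0279) and Rps27l lower (-0.71, SE 0.13, adjusted p = 0.00602), with a median of -0.25, and Eda2r was called lower as well without these clones.

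Of 17 tested targets with roles in metabolism, trafficking and other processes, 3 were higher and 3 lower, with a median of 0.13. Those with the smallest adjusted p were Abhd4, a lipase (1.10, SE 0.15, adjusted p = 0.00190), Cd82, a tetraspanin (1.41, SE 0.27, adjusted p = 0.00676), Ak1, an adenylate kinase (-2.70, SE 0.57, adjusted p = 0.00948), and Gpx1, a glutathione peroxidase (-0.69, SE 0.18, adjusted p = 0.0237). Zfp365 was the third lower gene and Pltp the third higher one.

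Genes known to be held down by p21 through the DREAM complex, most of them needed for mitosis, were lower or not called. Whether p21 acts on them here was not tested, and Cdkn1a itself was not called between the states. Of 14 tested, 5 were lower in ciliated controls and 0 higher, with a median of -0.28. Over all genes 9.46% were lower and 8.98% higher, with a median of 0.02. The list was chosen with earlier results of these data known, so the contrast with all genes is no independent test. Aurka (-0.79, SE 0.12, adjusted p = 0.00275), Plk1 (-0.66, SE 0.12, adjusted p = 0.00565), Ccnb1 (-0.36, SE 0.11, adjusted p = 0.0387) and Top2a (-0.44, SE 0.13, adjusted p = 0.0396) had the smallest adjusted p, and Birc5 was the fifth. The same 5 were called without conG7 and BE_Co2, and Aurka, Plk1 and Ccnb1 were also called lower between the mutant clones of the 2 states.

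Some of the 10 genes are known to respond to other factors too, Sesn1 and Trp53inp1 to Foxo proteins and Gdf15 to Atf4. Lists of these factors' targets were therefore set beside them, chosen with earlier results of these data known. Their counts against all genes are thus no independent test. Whether these factors act on the 10 genes here was not tested. Of 10 Foxo targets 5 were higher in ciliated controls and 0 lower, with a median of 0.62, compared with 8.98% of all genes higher and 9.46% lower. Txnip (2.73, SE 0.35, adjusted p = 0.00150), Pik3ip1 (1.85, SE 0.33, adjusted p = 0.00480), Cdkn1b (1.12, SE 0.29, adjusted p = 0.0225) and Insr (0.44, SE 0.12, adjusted p = 0.0246) led it, and Ccng2 was the fifth. Of 11 Atf4 targets 0 were higher and Psat1, an enzyme of serine synthesis, was lower (-1.64, SE 0.35, adjusted p = 0.0102), with a median of 0.01. Slc7a11 (2.30, SE 0.94), Asns (-0.76, SE 0.34) and Ddit4 (1.29, SE 0.66) followed it in rank and were not called. In mutants against controls 0 genes of these 7 lists were called in either state, as was the case for all genes tested (0%).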

How the data were processed

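Counts per gene symbol were deposited by the authors, 1 file for each of the 52 libraries, without normalization. By the study's methods and the submitters' processing notes, paired-end reads were aligned to GRCm38/mm10 with Rsubread 1.28.1 in R 3.4.4 and counted with featureCounts, and DESeq2 1.18.1 was the authors' test. Strand setting and treatment of multi-mapping reads are not given in the sources used here, so exons shared with other genes are uncertain (273 bases of Cdkn1a with an antisense RNA, 140 bases of Bax with Gm45808), as is Rps27l beside its paralogue Rps27.

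The 4 libraries of a clone were technical replicates and were summed. The fit on clone sums used edgeR 4.0.16 under R 4.3.3 (filterByExpr, TMM, glmQLFit and glmQLFTest, 4 group means in 1 fit); limma 3.58.1 and DESeq2 1.42.0 served the alternatives. SE is the log2 difference divided by the square root of F. CPM are TMM-scaled, clone values are means of 4 libraries, and log2 CPM used a prior count of 2. Exon lengths came from GENCODE vM21 and promoters from RefSeq (GRCm38.p6). The code was tested on simulated data. No 2 libraries were identical (78 pairs within clones, chi-square per degree of freedom 1.99 to 104). Clones are single lines, so p-values measure the spread between these clones.

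The 10 genes and all lists were chosen with earlier results of these data known. The genes named outside the 10 are Trp53 and up to 4 per list with the smallest adjusted p, and 5 genes at each end of the likeness to Cdkn1a, of which 1 is not reported here; the others named complete a count or were added after their values were seen. Of the 19 metabolism targets, 18 symbols were in the files. Alternatives were other size factors and filters, DESeq2, libraries as samples with and without the replicate number as a block, voomLmFit, only the clones compared, a stricter call, and leaving out each clone or replicate. An additive fit of all 13 clones and leaving out conG7 with BE_Co2 were added after seeing the data.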

Additional observations from a re-analysis of the deposited data

Results flagged for a closer look

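Each gene was examined for a library far from the other 3 of its clone, and for a control clone far from the other 3 of its state, 150 groups of 4 in all. Chance flags about 1 in 20 groups, and 12 were found (gap above 0.829 of the range). The one at clone level was Sesn1 in the non-ciliated control BE_Co2, at 34.4 CPM against 14.7 to 17.5 CPM in the other 3 clones.

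Of the other 11, 4 concerned library 1 of AB_Co. It held Bax at 105 CPM (others 57.2 to 59.1), Gdf15 at 239 CPM (others 108 to 126), Trp53inp1 at 16.3 CPM (others 25.5 to 26.7) and Zmat3 at 56.2 CPM (others 84.3 to 87.3). Library 1 of BE_W60 was low for Bax, at 51.4 CPM against 80.8 to 83.2, and for Phlda3, at 23.8 CPM against 48.4 to 52.98. In library 1 of conA4, Cdkn1a was low at 353 CPM (others 464 to 479) and Ccng1 high at 50.1 CPM (others 34.1 to 35.7). Phlda3 was low in library 4 of conD8, at 45.0 CPM against 50.89 to 50.95, and high in library 1 of WDR343, at 44.5 CPM against 38.0 to 39.1. Sesn1 was low in library 2 of WDR343, at 64.4 CPM against 75.1 to 76.7. Most of these 11 thus concerned a library numbered 1, and the reason was not tested.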

How the results depend on the processing

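Ccng1 was called lower in ciliated controls under every alternative run. The number of the 10 genes called higher in ciliated controls was 1 as reported, 2 with DESeq2 (Bbc3 and Sesn1) and with voomLmFit (Cdkn1a and Sesn1), 3 in the additive fit of all 13 clones, which called 5383 genes, and 4 with libraries as samples, which called 7760. All genes called were 871 when a log2 difference of at least 1 was also asked. Leaving out 1 clone or replicate gave 1 to 2 genes lower and 1178 to 3063 genes called in all. DESeq2 called 3 and 14 genes in ciliated and non-ciliated mutants, voomLmFit 9 and 7, and libraries as samples 824 and 1314, with 1 of the 10 genes (Gdf15) lower in ciliated mutants and 237 genes for the interaction. Pairs of libraries with the same replicate number had a median r of -0.0011 and pairs with other numbers 0.00040. Of the same-numbered pairs, 34 of 312 were above 0.1, and no such count was made for other pairs. These values do not settle whether same-numbered libraries share a batch. With the replicate number as a block, libraries as samples called 4 of the 10 genes higher and 7625 genes in all between states, 651 and 1141 in ciliated and non-ciliated mutants (1 of the 10 genes lower in ciliated ones), and 168 for the interaction. Among control clones, asking for a range of at least 1 log2 unit left 4 and 5 of the 10 genes and 4056 and 3160 of all. Bax overlapped in non-ciliated mutants (0 of the 10 genes apart) with library log2 values averaged.

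Small differences changed sign. Leaving out 1 clone or replicate gave the following ranges in ciliated mutants: Bax -0.10 to 0.16, Bbc3 -0.18 to 0.16, Ccng1 -0.39 to 0.14, Cdkn1a -0.29 to 0.37, Phlda3 -0.11 to 0.29, Sesn1 -0.35 to 0.91 (0.35 with voomLmFit) and Zmat3 -0.28 to 0.24. In non-ciliated mutants they were Ccng1 -0.88 to 0.26, Mdm2 -0.38 to 0.19, Phlda3 -0.27 to 0.56 and Zmat3 -0.41 to 0.75. Between states they were Bax -0.25 to 0.040 and Gdf15 -0.61 to 0.29. Without conG7 and BE_Co2 the signs also changed for Gdf15 between states (0.51) and, in ciliated mutants, for Cdkn1a (-0.29), Ccng1 (0.081), Phlda3 (-0.11) and Sesn1 (0.91). The cause was not tested. None of these values was called. The lowest clone mean of the 10 genes was 7.22 CPM, and how far depth and the number of clones each limit the precision was not compared.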
